A study of Mus musculus with 9 samples.

Results

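The genes described here are the nuclear genes for subunits of the respiratory complexes II, III, IV and V and for cytochrome c, measured as messenger RNA in injured mouse tibialis anterior muscle, a muscle of the lower hind limb. A gene counted as a member if the deposited table listed it as protein coding and its symbol was Sdha, Sdhb, Sdhc, Sdhd, Cyc1 or Cycs, or began with Uqcr, Cox4 to Cox8 or Atp5. This gave 50 of the 54532 genes of the table, which were 4 genes of complex II, 9 of complex III, 1 for cytochrome c, 18 of complex IV and 18 of complex V. The 50 genes carried 49 distinct symbols, because Atp5o was listed at a second position that overlaps the first and held no reads in any library. Symbols are those of the table, so that Atp5a1, for example, is an older name of the gene for the alpha subunit of ATP synthase. The rule rests on names and used no measured value, but it was chosen with earlier results of these data known.

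Muscle was sequenced in 9 libraries, 3 from each of 3 groups. The groups were old P311-/- mice, old wild-type mice of 24 months and young wild-type mice of 4 to 6 months, and muscle of all 3 groups had been injured. P311 is the protein encoded by Nrep. None of the sources used here gives the exact age of the P311-/- mice, the design of the deleted allele, how the muscle was injured or how long before sampling. Replicates carry the numbers 1 to 3 in each group, and whether each was a separate animal is not stated, so that p-values cover the spread between libraries, which may be technical.

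The respiratory chain sits in the inner membrane of mitochondria. Complex II (succinate dehydrogenase) passes electrons from succinate of the citric acid cycle to ubiquinone, complex III passes them on to the small soluble protein cytochrome c, and complex IV (cytochrome c oxidase) passes them to oxygen. Complexes III and IV pump protons, and complex V (ATP synthase) uses the proton gradient to make ATP. Complex II is encoded in the nucleus alone, whereas complexes III, IV and V also hold subunits encoded by mitochondrial DNA, among them the core subunits of complex IV. Muscle fibres use muscle forms of several complex IV subunits in place of the forms found in most other tissues.

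Values are FPKM, that is fragments per length of the gene and per size of the library as the authors had scaled it. The lengths are those deposited, and whether they match the expressed message was not tested. Levels of different genes, and rankings, isoform ratios and shares built on them, therefore compare only roughly. The same length enters every library, so that differences of 1 gene between groups do not rest on it. Reads per library, recovered from the FPKM values, numbered 14222204 to 31910890, and mitochondrial genes held 9.47% to 14.1% of them in old P311-/- muscle, 13.2% to 17.6% in old wild-type muscle and 8.79% to 10.7% in young wild-type muscle, so that every old wild-type library was above every young one. Nrep, the deleted gene, stood at 14.8, 6.37 and 9.72 FPKM in old P311-/- muscle, 72.4, 71.4 and 83.1 FPKM in old wild-type muscle and 86.3, 72.6 and 63.9 FPKM in young wild-type muscle. All 20 genes of a list of mature muscle fibre markers were detected, and their summed level was 65261 to 84909 FPKM in old P311-/- muscle, 66468 to 81582 FPKM in old wild type and 58485 to 63742 FPKM in young wild type. Old P311-/- replicate 1 and replicates 2 and 3 of its group stood apart. The summed level of 8 regenerating fibre markers was 996 FPKM in replicate 1 and 278 and 317 FPKM in replicates 2 and 3. It was 652 to 1096 FPKM in old and 703 to 949 FPKM in young wild-type muscle. Replicate 1 thus lay within the old wild-type range, and replicates 2 and 3 lay below every wild-type library. On the first principal component replicate 1 lay at -11.2, and replicates 2 and 3 at 52.3 and 37.9. Old wild type lay there at -1.09 to 12.3 and young wild type at -36.65 to -24.8. Which of these libraries stands for the group was not tested. Counts, medians and sums over the members, and the fold changes of the members described by library, are therefore also given without that library.

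Summed over all 50 members, levels were 10292, 12297 and 9611 FPKM in old P311-/- muscle, 13055, 14220 and 14600 FPKM in old wild-type muscle and 11444, 10309 and 8689 FPKM in young wild-type muscle. Every old wild-type library was above every library of the other two groups. The summed mean of old P311-/- muscle was 76.9% of that of old wild-type muscle, and that of old wild-type muscle was 138% of that of young wild-type muscle. The summed means of old P311-/- and young wild-type muscle, 10733 ± 1396 FPKM and 10147 ± 1385 FPKM (SD, n = 3 each), differed by less than 1 SD. In whole muscle, fewer cells of a type and less RNA per cell cannot be told apart. Without old P311-/- replicate 1 the summed mean of old P311-/- muscle was 78.5% of that of old wild-type and 108% of that of young wild-type muscle. By complex, replicates 2 and 3 averaged 96.5% of old wild type for complex II, 73.4% for III, 59.2% for cytochrome c, 73.8% for IV and 86.0% for V. These sums are a description and were not tested.

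**Figure D1:**
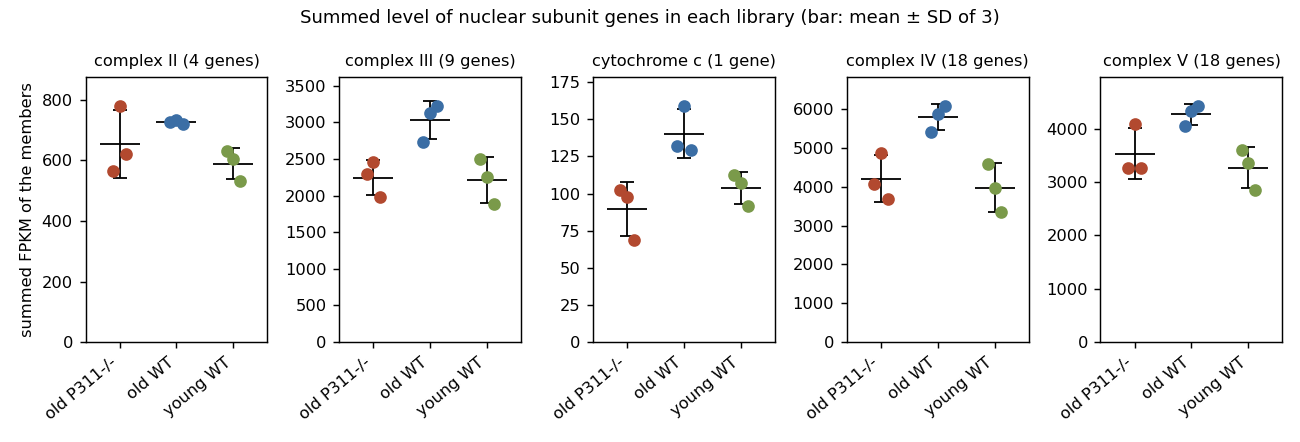
Summed FPKM of the members of each complex (y axis, from 0) in each library of old P311-/-, old wild-type and young wild-type muscle (points), with the mean ± SD of 3 libraries (lines). In complexes III and IV and in cytochrome c all 3 old wild-type libraries lie above all other libraries, and in complexes II and V old P311-/- replicate 2 reaches or passes the old wild-type range.

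Genes were tested with limma on log2 of FPKM plus 0.1, and a gene was called where the p-value adjusted over all 14233 tested genes was under 0.05. Of the 50 members 47 were tested. The other 3 were Cox8c and the second listing of Atp5o, which held no reads, and Cox7b2, which held at most 5 reads in a library.

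Injured muscle of old wild-type mice held more message of 8 members than that of young wild-type mice. In this comparison 8 of the 47 tested members were called higher and 0 lower, where 3.39% of all tested genes were called higher and 2.01% lower. The 8 were Uqcrb of complex III, Cox7b, Cox6c and Cox7a2 of complex IV, and Atp5l, Atp5s, Atp5j and Atp5f1 of complex V, with old wild-type means 1.56 to 2.18 times the young wild-type means. At an unadjusted p under 0.05, 27 members were higher and 0 lower, against 1984 and 1764 of the 14233 tested genes. All 3 old wild-type libraries were above all 3 young wild-type libraries for 30 members and below them for 0, against 19.0% and 18.1% of all tested genes. The log2 fold change was above 0 for 44 of 47 members, with a median of 0.38, and the median over all tested genes was 0.00496. The 3 members below 0 were Cox8a, Cox6a1 and Cox4i2.

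The calls in that comparison rested on all libraries of the young group. With any 1 of the 3 young wild-type libraries left out, or without old wild-type replicate 2 or 3, the number of members called higher was 0. How many of all genes were called in those fits is not given here. Without old P311-/- replicate 1, whose spread enters the shared fit, 11 members were called higher. Of all tested genes 1033 were then called higher, against 482 with all libraries. The number of members called higher was also 0 after trends with gene length and base composition were removed. In that fit 0 of all genes were called higher and 4 lower, and the median of the members was 0.32. With these trends removed the called members had log2 fold changes of 0.43 for Uqcrb, 0.67 for Cox7b, 0.97 for Cox6c and 0.73 for Cox7a2, and of 0.64 for Atp5l, 0.35 for Atp5s, 0.80 for Atp5j and 0.16 for Atp5f1. The value moved by over 1.5 times for Uqcrb, Cox7b, Atp5s and Atp5f1. Under scaling to total reads, which moved the median of all genes to -0.12, 1 member was called higher, against 96 of all tested genes. The median of the members was then 0.25. Of the fibroblast markers 3 of 10 were called lower in old wild-type muscle, and their summed level was 1252 to 1576 FPKM in old and 1833 to 1989 FPKM in young wild-type muscle. Of 15 macrophage markers none was called, but the fold change of each of the 15 was below 0, with a median log2 value of -0.48 and a summed level of 1276 to 1880 FPKM in old and 1578 to 2432 FPKM in young wild-type muscle. The summed level of mature fibre markers, given above, was higher in every old than in every young wild-type library. Of these 20 genes 13 had a fold change above 0 and 7 below 0, and 1, Myh1, was called lower in old wild-type muscle. No marker of these lists was at 0 in any library, and the part of these cell types, and of the share of mitochondrial reads, in the result was not tested.

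In old P311-/- muscle most members stood below their level in old wild-type muscle, but no single member passed the test. With limma 0 of 47 members were called, where 0.0703% of all tested genes were called, and with voom on the recovered reads 0 were called. The smallest adjusted p of a member was 0.242. At an unadjusted p under 0.05, 23 members were lower and 0 higher, against 8.54% of all tested genes that were lower. All 3 old P311-/- libraries were below all 3 old wild-type libraries for 28 members and above them for 0, against 9.39% of all tested genes below and 8.64% above. The log2 fold change was below 0 for 44 of 47 members, with a median of -0.39 and a median over all tested genes of -0.00386. The 3 members not below 0 were Sdha, Cox6a2 and Atp5a1. This comparison and that of old with young wild type share the 3 old wild-type libraries, so that their values are not independent.

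Without old P311-/- replicate 1, 13 members were called lower in old P311-/- muscle and 0 higher, against 6.2% of all tested genes called lower. The log2 fold change was then below 0 for 39 of 47 members, with a median of -0.42. Replicates 2 and 3 were both below all old wild-type libraries for 30 members and above them for 1, Cox6a2, against 23.1% of all tested genes below and 25.0% above. The 13 called were Uqcrb and Uqcrh of complex III, Cycs, the complex IV members Cox7b, Cox6c, Cox7a2, Cox7c, Cox7a1 and Cox8a, and the complex V members Atp5j2, Atp5j, Atp5mpl and Atp5l. With library quality weights 22 members were called lower, against 9.77% of all tested genes. The weights of old P311-/- replicates 1, 2 and 3 were 0.27, 0.687 and 2.54, the lowest of the 9 for replicate 1 and the highest for replicate 3. Replicate 3 also had the lowest members of its group. Its median log2 deviation from the gene means was -0.29, against -0.13 and 0.022 in replicates 1 and 2, so that these calls lean on that library. Other cell types differed between the same libraries. Summed macrophage markers were 1716, 739 and 1012 FPKM in the old P311-/- libraries, against 1276 to 1880 FPKM in old wild-type muscle, and summed fibroblast markers were 1504, 829 and 926 FPKM, against 1252 to 1576 FPKM. None of the 15 macrophage and 10 fibroblast markers was called between these groups, none was at 0 in any library, and their part in the result was not tested.

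**Figure D2:**
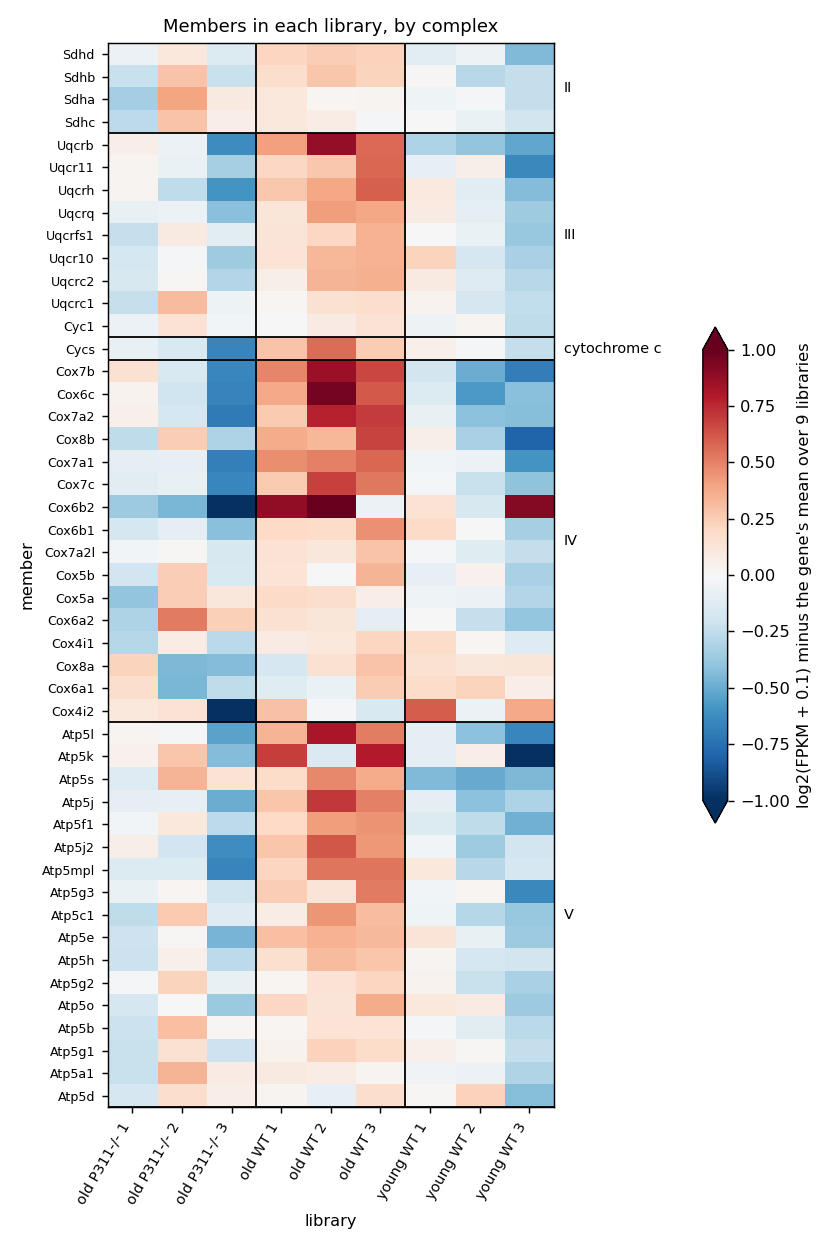
Each tested member (rows, grouped by complex, ordered within a complex by the fold change of old over young wild type) in each library (columns), coloured by log2(FPKM + 0.1) minus the gene's mean over the 9 libraries. The 3 old wild-type columns are red for most rows, old P311-/- replicate 3 and young wild-type replicate 3 are blue for most, and Sdha, Cox6a2 and Atp5a1 are highest in old P311-/- replicate 2.

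Complex II had the smallest median differences of the complexes, with log2 fold changes of -0.14 for old P311-/- over old wild type and 0.27 for old over young wild type. The order in old over young wild type depends on the processing. With the trends with gene length and base composition removed, that median was 0.21 for complex II and 0.13 for complex IV. The 4 genes of complex II were all tested and none was called in any comparison. Sdha, which encodes the flavin-bearing catalytic subunit, stood at 148, 247 and 199.8 FPKM in old P311-/- muscle, 202, 189.7 and 191 FPKM in old wild-type muscle and 182, 186 and 159 FPKM in young wild-type muscle. Old P311-/- replicate 2 was the highest and replicate 1 the lowest of the 9 libraries, and the wild-type groups did not overlap. The log2 fold change of Sdha was 0.00080 (SE 0.18, adjusted p = 0.998) for old P311-/- over old wild type and 0.15 (SE 0.18, adjusted p = 0.636) for old over young wild type. Sdhb, the iron-sulfur subunit, stood at 161, 229 and 161 FPKM in old P311-/- muscle, 213, 228 and 219 FPKM in old wild-type muscle and 189, 155 and 159 FPKM in young wild-type muscle. Old wild type was above young wild type in every library, with log2 fold change 0.39 (SE 0.16, adjusted p = 0.16), and old P311-/- replicate 2 stood with the old wild-type libraries, with log2 fold change -0.28 (SE 0.16, adjusted p = 0.405) between the old groups. Sdhc and Sdhd encode the membrane anchors that hold the ubiquinone site. Sdhd stood at 195, 218 and 185 FPKM in old P311-/- muscle, 236, 240.0 and 238 FPKM in old wild-type muscle and 188, 196 and 149.7 FPKM in young wild-type muscle. Its old wild-type libraries were above all other libraries, with log2 fold change 0.43 (SE 0.14, adjusted p = 0.0902) against young wild type and -0.26 (SE 0.14, adjusted p = 0.367) for old P311-/- over old wild type. Sdhc, the lowest of the 4, stood at 59.2, 86.8 and 74.4 FPKM in old P311-/- muscle, 76.3, 74.9 and 69.9 FPKM in old wild-type muscle and 71.2, 67.8 and 62.7 FPKM in young wild-type muscle. Its groups overlapped in every comparison, and its log2 fold changes were -0.02 (SE 0.15, adjusted p = 0.956) for old P311-/- over old wild type and 0.13 (SE 0.15, adjusted p = 0.602) for old over young wild type. The median of complex II between the old groups without old P311-/- replicate 1 was -0.034, with log2 fold changes of 0.20 for Sdha, -0.19 for Sdhb, 0.13 for Sdhc and -0.25 for Sdhd, none called. With both trends removed Sdhd had -0.14 between the old groups and 0.26 for old over young wild type. Under scaling to total reads Sdha had 0.013 and Sdhb 0.26 for old over young wild type. The summed level of complex II in old P311-/- muscle was 90.3% of that in old wild-type muscle, and that in old wild-type muscle was 123% of that in young wild-type muscle.

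Complex III had 1 gene called, Uqcrb, higher in old than in young wild-type muscle. All 9 genes had a fold change above 0 between old and young wild type, with a median log2 fold change of 0.38, and all 9 were below 0 between old P311-/- and old wild type, with a median of -0.45. Uqcrb (chromosome 13, 66900617 to 66905378), a small matrix-facing accessory subunit, stood at 265, 243 and 164 FPKM in old P311-/- muscle, 336, 465 and 374 FPKM in old wild-type muscle and 204, 192 and 176 FPKM in young wild-type muscle. Every old wild-type library was above every other library. The log2 fold change 1.03 (SE 0.20, adjusted p = 0.0329) of old over young wild type passed the test, and the log2 fold change -0.82 (SE 0.20, adjusted p = 0.242) of old P311-/- over old wild type did not. With the trends with gene length and base composition removed, Uqcrb had log2 fold changes of 0.43 (SE 0.15, adjusted p = 0.174) for old over young wild type and -0.38 (SE 0.15, adjusted p = 0.509) for old P311-/- over old wild type. Its fold change between the old groups without old P311-/- replicate 1 was -0.96 (SE 0.19, adjusted p = 0.0177) and was called. Uqcrh (chromosome 4, 116066965 to 116075071), the acidic hinge protein at the docking site of cytochrome c, stood at 283, 233 and 183 FPKM in old P311-/- muscle, 335, 364 and 421 FPKM in old wild-type muscle and 297, 259 and 206 FPKM in young wild-type muscle. The old wild-type libraries again lay above all others, with 0.56 (SE 0.20, adjusted p = 0.11) on the log2 scale against young wild type and -0.70 (SE 0.20, adjusted p = 0.253) for old P311-/- over old wild type. Without old P311-/- replicate 1 the second of these values of Uqcrh was -0.85 (SE 0.18, adjusted p = 0.0218), and with both trends removed the first was 0.32. The median of complex III between the old groups was -0.45 without that library, with 8 of 9 genes below 0.

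Uqcr11 and Uqcrq are further small accessory subunits of complex III. Uqcr11 stood at 249, 234 and 194 FPKM in old P311-/- muscle, 282, 294 and 363 FPKM in old wild-type muscle and 231, 254 and 156 FPKM in young wild-type muscle. No old wild-type library of Uqcr11 overlapped another group, and the log2 fold changes were 0.57 (SE 0.20, adjusted p = 0.111) for old over young wild type and -0.47 (SE 0.20, adjusted p = 0.297) for old P311-/- over old wild type. Uqcrq stood at 204, 205 and 159.8 FPKM in old P311-/- muscle, 233, 286 and 279 FPKM in old wild-type muscle and 226, 201 and 168 FPKM in young wild-type muscle. The groups of Uqcrq overlapped in neither comparison with old wild type, and the log2 fold changes were 0.43 (SE 0.16, adjusted p = 0.137) and, for old P311-/- over old wild type, -0.49 (SE 0.16, adjusted p = 0.26). Between the old groups, with old P311-/- replicate 1 left out, the fold changes were -0.55 for Uqcr11 and -0.55 for Uqcrq, neither called. Uqcr10 was the most abundant gene of the complex, at 400.4 ± 47.5 FPKM in old P311-/- muscle, 546 ± 44.2 FPKM in old wild type and 429 ± 85.8 FPKM in young wild type (SD, n = 3 each). Cyc1 and Uqcrc1 had the smallest fold changes of the complex in both comparisons with old wild type. Cyc1, whose haem passes electrons to cytochrome c, had log2 fold changes of -0.06 for old P311-/- over old wild type and 0.17 for old over young wild type. Uqcrc1, a core protein, had -0.10 and 0.24 in the same order. The Rieske iron-sulfur protein gene Uqcrfs1 and the core protein gene Uqcrc2 had -0.31 and -0.40 for old P311-/- over old wild type and 0.38 and 0.36 for old over young wild type. Uqcr10, an accessory subunit, had -0.45 and 0.36 in that order. These orders were read from the values, were not tested as a difference between subunits, and depend on the processing, since with both trends removed Cyc1 and Uqcrc1 had 0.32 and 0.38 for old over young wild type, against 0.16 for Uqcr10, 0.20 for Uqcrfs1 and 0.14 for Uqcrc2.

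Cycs (chromosome 6, 50562563 to 50566538), the somatic cytochrome c gene, was called in no comparison with all libraries. It stood at 103, 97.6 and 68.5 FPKM in old P311-/- muscle, 132, 159 and 129 FPKM in old wild-type muscle and 112, 107 and 91.8 FPKM in young wild-type muscle. The old wild-type libraries were above all others. The log2 fold change of Cycs was -0.66 (SE 0.18, adjusted p = 0.243) for old P311-/- over old wild type and 0.43 (SE 0.18, adjusted p = 0.157) for old over young wild type. Its mean in old P311-/- muscle was 63.9% of that in old wild-type muscle, and without old P311-/- replicate 1 it was called lower there, with a log2 fold change of -0.77 (SE 0.17, adjusted p = 0.0251). With the trends with gene length and base composition removed, the log2 fold changes of Cycs were -0.40 (SE 0.14, adjusted p = 0.509) for old P311-/- over old wild type and 0.10 (SE 0.14, adjusted p = 0.735) for old over young wild type.

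Complex IV held members with fold changes among the largest and members with fold changes of the other sign. Of its 18 genes 16 were tested, and 3, Cox7b, Cox6c and Cox7a2, were called higher in old than in young wild-type muscle. The median log2 fold change was -0.45 for old P311-/- over old wild type and 0.32 for old over young wild type. Cox7b (chromosome X, 106015700 to 106022450), a small transmembrane accessory subunit, stood at 419, 338 and 239 FPKM in old P311-/- muscle, 527, 682 and 596 FPKM in old wild-type muscle and 330.3, 266 and 233 FPKM in young wild-type muscle. Every old wild-type library was above every other one, and log2 fold change 1.13 (SE 0.22, adjusted p = 0.033) against young wild type passed the test. For old P311-/- over old wild type Cox7b had log2 fold change -0.89 (SE 0.22, adjusted p = 0.242). Cox6c (chromosome 15, 35925886 to 35938246), another small transmembrane subunit, stood at 147, 125 and 90.5 FPKM in old P311-/- muscle, 187, 279 and 220.1 FPKM in old wild-type muscle and 131, 96.2 and 108 FPKM in young wild-type muscle. Old wild-type libraries of Cox6c did not overlap either other group. Cox6c had log2 fold change 1.03 (SE 0.22, adjusted p = 0.0359) for old over young wild type and log2 fold change -0.93 (SE 0.22, adjusted p = 0.242) for old P311-/- over old wild type, the last being the lowest of any member but Cox6b2. Cox7c (chromosome 13, 86044816 to 86046904) stood at 289, 298 and 199 FPKM in old P311-/- muscle, 376, 505 and 451 FPKM in old wild-type muscle and 311.3, 269 and 237 FPKM in young wild-type muscle. It had the same order of libraries without passing, with log2 fold change 0.70 (SE 0.19, adjusted p = 0.0628) for old over young wild type and log2 fold change -0.77 (SE 0.19, adjusted p = 0.243) for old P311-/- over old wild type. Leaving out old P311-/- replicate 1 gave complex IV a median of -0.53 between the old groups, and Cox7b (-1.07), Cox6c (-1.08) and Cox7c (-0.86) were called lower. With both trends removed Cox7c had 0.05 for old over young wild type and -0.29 for old P311-/- over old wild type, and Cox7b had 0.67 and -0.53 for the same comparisons, none called.

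In 3 places complex IV uses a muscle form and a form found in most tissues, and both forms were measured. For the first pair, Cox7a1 is the muscle form and Cox7a2 the widespread one. Cox7a1 (chromosome 7, 30184144 to 30186078) stood at 368, 373 and 246 FPKM in old P311-/- muscle, 543, 558 and 588 FPKM in old wild-type muscle and 388, 379 and 260.1 FPKM in young wild-type muscle. Cox7a2 (chromosome 9, 79755361 to 79759878) stood at 226, 193 and 134 FPKM in old P311-/- muscle, 262, 372 and 354 FPKM in old wild-type muscle and 208, 165 and 163 FPKM in young wild-type muscle. Both forms were higher in all old wild-type libraries than in any other library. Cox7a2 passed the test between old and young wild type with log2 fold change 0.88 (SE 0.22, adjusted p = 0.0498), and Cox7a1 did not, with log2 fold change 0.74 (SE 0.21, adjusted p = 0.0643). A difference between the 2 forms is not shown by this, and their ratio is given below. For old P311-/- over old wild type the log2 fold changes were -0.80 (SE 0.21, adjusted p = 0.243) for Cox7a1 and -0.85 (SE 0.22, adjusted p = 0.243) for Cox7a2. Both were called lower without old P311-/- replicate 1, with -0.89 (SE 0.22, adjusted p = 0.0307) for Cox7a1 and -1.02 (SE 0.21, adjusted p = 0.0187) for Cox7a2.

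For the second pair, Cox8b is the muscle form and Cox8a the widespread one. Cox8b (chromosome 7, 140898945 to 140900446) stood at 714, 1010.2 and 688 FPKM in old P311-/- muscle, 1102, 1069 and 1357 FPKM in old wild-type muscle and 884, 679 and 489 FPKM in young wild-type muscle. Cox8b was the most abundant complex IV gene in both wild-type groups, its old wild-type libraries were above all others, and it missed the test with log2 fold change 0.82 (SE 0.24, adjusted p = 0.0725) for old over young wild type and log2 fold change -0.56 (SE 0.24, adjusted p = 0.294) for old P311-/- over old wild type. Cox8a (chromosome 19, 7215158 to 7217616) stood at 118, 73.9 and 74.6 FPKM in old P311-/- muscle, 89.6, 112 and 123 FPKM in old wild-type muscle and 112, 109 and 109.8 FPKM in young wild-type muscle. Cox8a overlapped between old and young wild type, with log2 fold change -0.04 (SE 0.19, adjusted p = 0.917), and old P311-/- replicate 1 stood among the wild-type values while replicates 2 and 3 were the lowest of all 9. Its log2 fold change for old P311-/- over old wild type was -0.31 (SE 0.19, adjusted p = 0.442), and without old P311-/- replicate 1 it was -0.53 (SE 0.14, adjusted p = 0.0389). Cox8b had -0.49 without that library and was not called. For the third pair, Cox6a2 is the muscle form and Cox6a1 the widespread one. Cox6a2 (chromosome 7, 128205435 to 128206387) stood at 577, 1026 and 843 FPKM in old P311-/- muscle, 793, 775 and 665 FPKM in old wild-type muscle and 711, 608 and 545 FPKM in young wild-type muscle. Old P311-/- replicate 2 was the highest and replicate 3 the next of the 9, and no group of Cox6a2 separated from another. Cox6a1 (chromosome 5, 115345642 to 115348981) stood at 78.0, 50.3 and 57.8 FPKM in old P311-/- muscle, 63.5, 65.8 and 82.2 FPKM in old wild-type muscle and 78.3, 80.4 and 72.4 FPKM in young wild-type muscle. Its lowest libraries were old P311-/- replicates 2 and 3. The log2 fold changes of old P311-/- over old wild type were 0.10 (SE 0.21, adjusted p = 0.842) for Cox6a2 and -0.20 (SE 0.18, adjusted p = 0.582) for Cox6a1, and those of old over young wild type were 0.26 (SE 0.21, adjusted p = 0.458) for Cox6a2 and -0.14 (SE 0.18, adjusted p = 0.659) for Cox6a1. Leaving out old P311-/- replicate 1 gave, between the old groups, 0.33 for Cox6a2 and -0.38 for Cox6a1, neither called. With both trends removed Cox6a2 had 0.08 for old over young wild type.

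Sequence upstream of the start sites is shown for 5 of these 6 isoform genes and for Cox7b, since these members of 1 complex had unlike fold changes. Each line runs 5′ to 3′ on the gene's strand, from RefSeq on GRCm38.p6, and ends at the last base before annotated exons. Capitals mark matches, on either strand, to the letters GCGCANGCG (nuclear respiratory factor NRF1), CCGGAAG (ETS family), AAGGTCA (oestrogen-related receptors), AAGATGGC (YY1), CAGCTG (an E-box of myogenic factors) or CTANNNNTA (MEF2 factors).
Cox7a1, chr7:30183974-30184143, plus strand: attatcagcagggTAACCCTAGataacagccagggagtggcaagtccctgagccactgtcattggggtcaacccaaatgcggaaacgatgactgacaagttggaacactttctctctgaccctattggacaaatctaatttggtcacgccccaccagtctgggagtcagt
Cox7a2, chr9:79759879-79760048, minus strand: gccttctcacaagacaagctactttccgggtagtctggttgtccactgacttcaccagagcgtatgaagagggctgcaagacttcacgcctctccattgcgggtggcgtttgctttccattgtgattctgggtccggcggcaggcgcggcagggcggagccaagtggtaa
Cox8b, chr7:140900447-140900616, minus strand: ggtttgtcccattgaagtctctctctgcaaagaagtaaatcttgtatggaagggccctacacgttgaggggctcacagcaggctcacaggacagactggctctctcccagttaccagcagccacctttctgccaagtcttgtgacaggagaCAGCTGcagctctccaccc
Cox8a, chr19:7217617-7217786, minus strand: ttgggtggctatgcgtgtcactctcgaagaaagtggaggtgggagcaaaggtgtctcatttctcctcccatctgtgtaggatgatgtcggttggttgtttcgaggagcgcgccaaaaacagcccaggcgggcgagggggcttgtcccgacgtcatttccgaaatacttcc
Cox6a1, chr5:115348982-115349129, minus strand: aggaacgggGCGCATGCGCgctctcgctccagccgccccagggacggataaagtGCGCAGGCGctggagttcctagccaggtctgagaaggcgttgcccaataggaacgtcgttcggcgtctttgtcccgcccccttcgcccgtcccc
Cox7b, chrX:106015530-106015699, plus strand: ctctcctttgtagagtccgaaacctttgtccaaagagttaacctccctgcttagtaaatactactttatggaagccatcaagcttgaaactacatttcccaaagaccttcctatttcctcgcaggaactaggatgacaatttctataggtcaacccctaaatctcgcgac
In these stretches Cox7a1 held 1 MEF2 match, Cox8b 1 E-box match and Cox6a1 NRF1 matches in 2 places, 1 of which also matched on the other strand, and no letters of the list were found in the stretches of Cox7a2, Cox8a and Cox7b. Cox7a2 also held the MEF2 letters 28 bases before its start site and Cox6a1 the ETS letters 16 bases before its own, both in annotated exon sequence that is not printed, so that both Cox7a1 and Cox7a2 had a MEF2 match before the start site. Over the 250 bases before the start site, 35 of the 49 member names had a RefSeq entry. Of these 35, 9 held the NRF1 letters (25.7%, against 5.86% of 27025 genes with an entry) and 9 the ETS letters (25.7%, against 7.83%). The MEF2 letters were in 8 (22.9%, against 21.4%), the E-box letters in 2 (5.71%, against 14.7%), the receptor letters in 2 (5.71%, against 4.70%) and the YY1 letters in 1 (2.86%, against 1.83%). Cox6a1, Cycs, Sdha, Sdhd and Atp5l were among the 9 with the NRF1 letters. A match is a description of the letters and no measure of binding.

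The ratio of muscle to widespread form compares both genes within a library. Cox8b stood 6.07, 13.7 and 9.23 times as high as Cox8a in old P311-/- muscle, 12.3, 9.57 and 11.02 times in old wild-type muscle and 7.90, 6.23 and 4.45 times in young wild-type muscle. The old wild-type ratios were all above the young wild-type ratios, and the old P311-/- ratios spanned almost the whole range. The log2 ratio differed by 0.85 between old and young wild type. A two-sided exact permutation test of 3 libraries against 3 cannot give a p below 0.1, so that none of the 9 ratio comparisons could pass it, and the ratios are given as a description. Cox6a2 stood 7.39, 20.4 and 14.6 times as high as Cox6a1 in old P311-/- muscle, 12.5, 11.8 and 8.09 times in old wild-type muscle and 9.09, 7.57 and 7.53 times in young wild-type muscle. These ratios overlapped in all 3 comparisons. Cox7a1 stood 1.62, 1.93 and 1.84 times as high as Cox7a2 in old P311-/- muscle, 2.07, 1.502 and 1.66 times in old wild-type muscle and 1.87, 2.30 and 1.60 times in young wild-type muscle, and overlapped in all 3 comparisons. The difference of their log2 ratio was 0.053 for old P311-/- over old wild type and -0.14 for old over young wild type. The log2 ratios of old P311-/- replicates 2 and 3 differed on average from those of old wild type by 0.042 for Cox8b to Cox8a, 0.70 for Cox6a2 to Cox6a1 and 0.12 for Cox7a1 to Cox7a2.

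**Figure D3:**
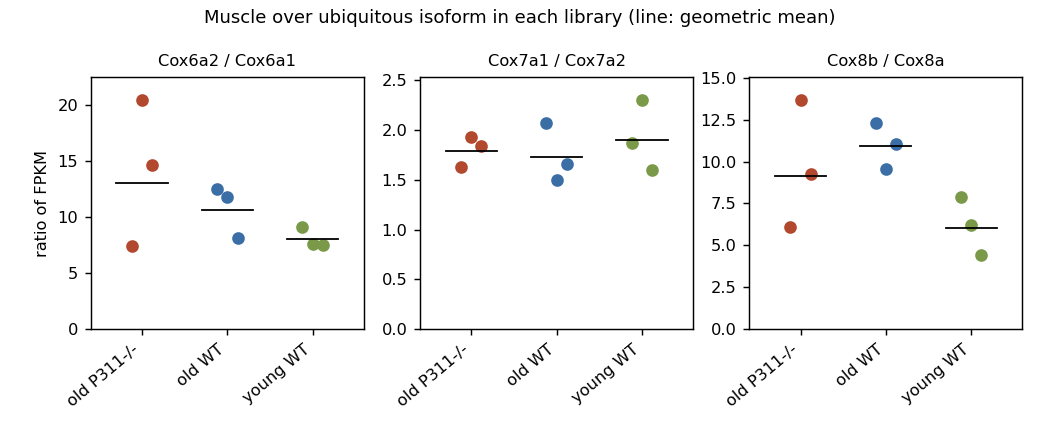
Ratio of the FPKM of the muscle form to that of the widespread form (y axis, from 0) for 3 pairs of complex IV subunits, by library (points) and group, with the geometric mean of 3 libraries (line). For Cox8b over Cox8a all old wild-type libraries lie above all young wild-type libraries, and in the other pairs the groups overlap.

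The remaining complex IV members had smaller fold changes or were scarce. Cox4i1, the main form of a subunit that surrounds the core, stood at 409.9 ± 60.4 FPKM in old P311-/- muscle, 499 ± 25.6 FPKM in old wild type and 464 ± 49.7 FPKM in young wild type (SD, n = 3 each), and its log2 fold changes were -0.29 for old P311-/- over old wild type and 0.11 for old over young wild type. Cox5a and Cox5b, subunits on the matrix side, had -0.16 and -0.19 for old P311-/- over old wild type and 0.28 and 0.28 for old over young wild type. Cox6b1, on the intermembrane side, had -0.51 and 0.33 in that order, and its old P311-/- libraries lay below all old wild-type libraries. Cox7a2l, which encodes a factor that joins complexes III and IV into supercomplexes, had -0.24 and 0.30. Cox4i2, a form known from lung, stood at 1.13 to 4.52 FPKM over the 9 libraries and was the member with the lowest log2 fold change of old over young wild type, -0.27 (SE 0.36, adjusted p = 0.674). Cox6b2, a form known from testis, held 0 to 16 reads per library, so that its log2 fold change of -1.62 for old P311-/- over old wild type rests on few reads.

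**Figure D4:**
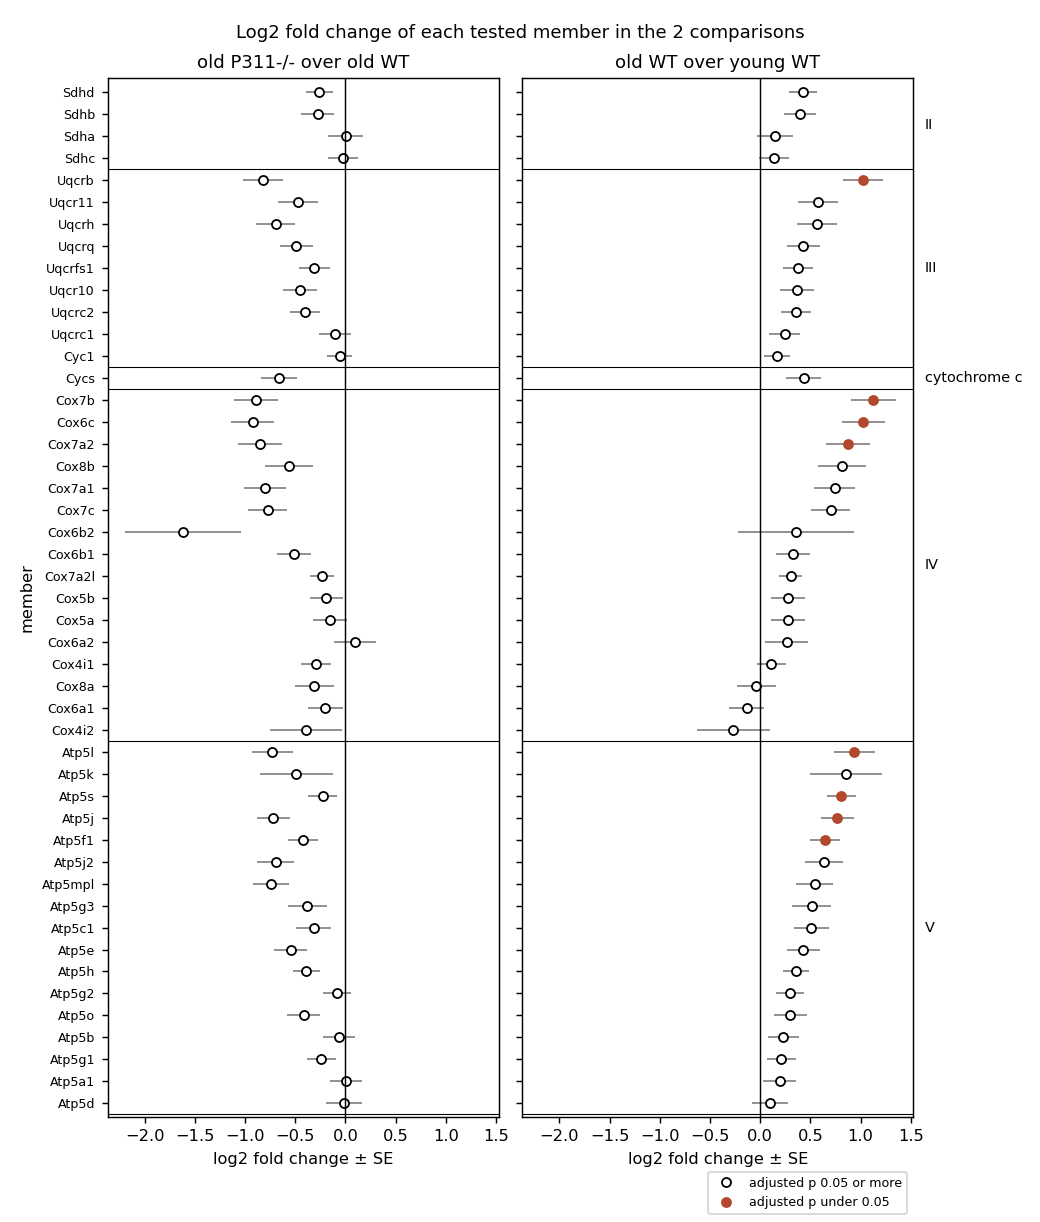
Log2 fold change ± SE (x axis) of each tested member (y axis, grouped by complex) for old P311-/- over old wild type (left) and old over young wild type (right), which share the old wild-type libraries. Filled points have an adjusted p under 0.05: 0 members on the left, and 8 on the right, all above 0.

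Complex V had 4 genes called, Atp5l, Atp5s, Atp5j and Atp5f1, all higher in old than in young wild-type muscle. Of its 18 genes 17 were tested, and all 17 had a log2 fold change above 0 between old and young wild type, with a median of 0.51. Between old P311-/- and old wild type 16 were below 0, with a median of -0.39, and without old P311-/- replicate 1 there were 14 below 0, also with a median of -0.39. ATP synthase has a catalytic head, a central stalk that turns with a ring in the membrane, and a peripheral stalk that holds the head still. Atp5j (chromosome 16, 84827866 to 84835625), a coupling factor in the peripheral stalk, stood at 115, 116 and 87.1 FPKM in old P311-/- muscle, 149, 200.3 and 175 FPKM in old wild-type muscle and 115, 92.3 and 99.0 FPKM in young wild-type muscle. The old wild-type libraries were above all others, with log2 fold change 0.77 (SE 0.17, adjusted p = 0.038) against young wild type and log2 fold change -0.72 (SE 0.17, adjusted p = 0.242) for old P311-/- over old wild type. Atp5f1 (chromosome 3, 105942698 to 105960099), the long helical subunit of that stalk, stood at 169, 185 and 143 FPKM in old P311-/- muscle, 197, 230.0 and 234 FPKM in old wild-type muscle and 157, 144 and 123 FPKM in young wild-type muscle. It was called with log2 fold change 0.65 (SE 0.15, adjusted p = 0.0429) for old over young wild type and had log2 fold change -0.42 (SE 0.15, adjusted p = 0.266) for old P311-/- over old wild type, with no overlap in either comparison. When old P311-/- replicate 1 was left out, the values between the old groups were -0.78 for Atp5j, which was called, and -0.44 for Atp5f1, which was not. With both trends removed Atp5f1 had 0.16 for old over young wild type and -0.045 for old P311-/- over old wild type. The other stalk genes were not called. Atp5h had log2 fold changes of -0.39 for old P311-/- over old wild type and 0.36 for old over young wild type, and Atp5o, which joins the stalk to the head, had -0.42 and 0.30 in that order.

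Small subunits of the membrane part had some of the largest differences between the old groups. Atp5l (chromosome 9, 44912557 to 44920742), which takes part in pairing ATP synthases into dimers, stood at 47.5, 46.1 and 32.0 FPKM in old P311-/- muscle, 58.9, 81.8 and 66.5 FPKM in old wild-type muscle and 43.8, 35.1 and 29.5 FPKM in young wild-type muscle. Old wild-type libraries were above all others, with log2 fold change 0.94 (SE 0.21, adjusted p = 0.0381) for old over young wild type, which passed, and log2 fold change -0.73 (SE 0.21, adjusted p = 0.253) for old P311-/- over old wild type. Atp5l has processed pseudogenes in the table, the most abundant of which stood at 1.53 to 6.50 FPKM, and none of the sources used here says how the counting divided reads between them. Atp5j2 (chromosome 5, 145183698 to 145192062) stood at 163, 137 and 102 FPKM in old P311-/- muscle, 189.9, 241 and 212 FPKM in old wild-type muscle and 154, 123 and 137 FPKM in young wild-type muscle. Atp5mpl (chromosome 12, 111961375 to 111966977) stood at 161, 161 and 112 FPKM in old P311-/- muscle, 206, 256 and 256 FPKM in old wild-type muscle and 191, 146 and 157 FPKM in young wild-type muscle. For both genes every old P311-/- library was below every old wild-type library. The log2 fold changes for old P311-/- over old wild type were -0.70 (SE 0.19, adjusted p = 0.243) for Atp5j2 and -0.74 (SE 0.18, adjusted p = 0.242) for Atp5mpl, and those for old over young wild type were 0.63 (SE 0.19, adjusted p = 0.0743) for Atp5j2 and 0.54 (SE 0.18, adjusted p = 0.102) for Atp5mpl. Without old P311-/- replicate 1 the values between the old groups were -0.83 for Atp5l, -0.85 for Atp5j2 and -0.83 for Atp5mpl, all called. Atp5k, the partner of Atp5l in the dimer interface, varied widely within groups, at 126, 149 and 90.9 FPKM in old P311-/- muscle, 199, 111 and 212 FPKM in old wild-type muscle and 115, 129 and 53.5 FPKM in young wild-type muscle, and its groups overlapped.

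The 2 main head subunits had small fold changes. Atp5a1 and Atp5b, the alpha and the catalytic beta subunit of the head, were the most abundant genes of the complex. Atp5a1 averaged 751 ± 145 FPKM in old P311-/- muscle, 738 ± 16.7 FPKM in old wild type and 647 ± 63.4 FPKM in young wild type, and Atp5b averaged 661 ± 119 FPKM in old P311-/- muscle, 684 ± 31.4 FPKM in old wild type and 585 ± 50.4 FPKM in young wild type (SD, n = 3 each). Their log2 fold changes for old P311-/- over old wild type were 0.01 and -0.06, and for old over young wild type 0.19 and 0.23. In the central stalk Atp5c1, the gamma subunit, had -0.31 for old P311-/- over old wild type and 0.51 for old over young wild type, Atp5e, the epsilon subunit, had -0.54 and 0.43, and Atp5d, the delta subunit, had -0.01 and 0.10. The membrane ring is built from 1 protein encoded by 3 genes, Atp5g1, Atp5g2 and Atp5g3. Atp5g3 gave 55.7% to 59.3% of their summed FPKM in old P311-/- muscle, 57.7% to 63.8% in old wild-type muscle and 52.4% to 60.9% in young wild-type muscle, and these ranges overlapped.

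Atp5s (chromosome 12, 69724950 to 69744660) encodes coupling factor B, a protein that acts with ATP synthase and is no part of its core, and was the scarcest tested gene of the complex. It stood at 5.16, 7.19 and 6.28 FPKM in old P311-/- muscle, 6.44, 7.93 and 7.35 FPKM in old wild-type muscle and 4.14, 3.96 and 4.12 FPKM in young wild-type muscle. Its young wild-type libraries were below all others. Atp5s had log2 fold change 0.81 (SE 0.14, adjusted p = 0.0307) for old over young wild type, log2 fold change -0.23 (SE 0.14, adjusted p = 0.443) for old P311-/- over old wild type and log2 fold change 0.58 (SE 0.14, adjusted p = 0.0971) for old P311-/- over young wild type. Between the old groups it had -0.10 without old P311-/- replicate 1 and 0.11 with both trends removed, and for old over young wild type it had 0.35 with both trends removed.

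Between old P311-/- and young wild-type muscle the members had a median fold change near 0. With limma 0 of 47 members were called, against 0.4% of all tested genes, and with voom 0 were called. At an unadjusted p under 0.05, 1 member was higher (Atp5s) and 0 lower, against 21.4% of all tested genes in either direction. The groups did not overlap for 2 members, Atp5s (higher) and Cox6b2 (lower), against 23.5% of all tested genes. The median log2 fold change was 0.09 over the members and 0.014 over all tested genes. A p that misses the threshold does not show equal levels, and the log2 fold changes of the members spanned -1.26 to 0.58. Without old P311-/- replicate 1, 4 members were called, against 19.6% of all tested genes. The groups then did not overlap for 7 members that were higher and 3 that were lower, against 27.7% and 24.8% of all tested genes, and the median over the members was 0.049. Atp5s, with 0.71 (SE 0.13, adjusted p = 0.00826), and Cox6a2, with 0.59 (SE 0.16, adjusted p = 0.0326), were higher in old P311-/- muscle on the log2 scale. Cox8a, with -0.57 (SE 0.14, adjusted p = 0.0230), and Cox6a1, with -0.51 (SE 0.14, adjusted p = 0.0340), each the widespread form of its pair, were lower. Cox7a2, also a widespread form, had -0.14 and was not called. The muscle forms Cox7a1, with -0.15, and Cox8b, with 0.33, were not called either.

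Other genes of the respiratory chain were read from lists beside the members. Of 36 tested nuclear complex I genes, 7 were called higher in old than in young wild-type muscle and 0 lower, with a median log2 fold change of 0.51. Among the 7 were Ndufa5, at 247 FPKM in old and 122 FPKM in young wild-type muscle (means of 3), and Ndufs4, at 107 FPKM in old and 55.8 FPKM in young wild-type muscle. Of 13 mitochondrially encoded subunits, mt-Co2 and mt-Co3, core subunits of complex IV, were called higher, with log2 fold changes of 2.16 and 2.54. Of the assembly factors, 1 of 4 for complex II (Sdhaf3), 0 of 6 for complex III, 1 of 21 for complex IV (Cmc1) and 1 of 5 for complex V (Tmem70) were called higher, and none was called lower. These counts stand beside the 3.39% of all tested genes called higher and the 2.01% called lower. Lists this short cannot tell a single call from those shares, which also holds for the regulators and the citric acid cycle below. Among 18 regulators of mitochondrial genes, Tfam, which packages and transcribes mitochondrial DNA, was called higher, with a log2 fold change of 0.49. Ppargc1b, a coactivator of respiratory genes, was called lower, with -1.28. Its mean was 2.28 FPKM in old and 5.69 FPKM in young wild-type muscle. In the citric acid cycle 1 of 14 genes, Sucla2, was called higher (log2 fold change 0.77). With the trends with gene length and base composition removed, 0 of all tested genes were called higher, and so no gene of these lists. Between old P311-/- and old wild-type muscle limma called 0 genes of any of these lists. The medians there were -0.38 for complex I, -0.36 for mitochondrially encoded subunits, -0.15 for the citric acid cycle and 0.13 for the regulators. All 13 mitochondrially encoded subunits were below 0, and their log2 fold changes spanned -3.41 to -0.13.

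The members share short genes, with a median length of 1675 bases against 3837 bases over all tested genes, and a base composition near the rest, with a median of 50.2% G and C against 49.7%. Across the 47 tested members the log2 fold change of old over young wild type had a Spearman correlation with G and C content of -0.40, and across 14219 tested genes it was -0.36. For old P311-/- over old wild type it was 0.24 across the members and 0.40 across all tested genes. With gene length the correlations across the members were 0.27 for old P311-/- over old wild type and -0.10 for old over young wild type. Across the 14219 tested genes they were 0.19 and -0.25 in the same order. All genes come from the same 9 libraries, so that these correlations are descriptions, and the part of base composition in the differences of single members was not tested. With both trends removed, 44 of 47 members were below 0 for old P311-/- over old wild type, with a median of -0.31, and 43 of 47 were above 0 for old over young wild type.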

How the data were processed

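RNA of injured muscle was read from 1 deposited table of 9 libraries. Its values are FPKM, which the authors scaled by library size factors, and its gene lengths are in bases, both as deposited. HISAT2 2.2.1, featureCounts 2.1.1 and DESeq2 1.42.0 stand, per the submitters' processing notes, beside the build mm39, without options. Of 54409 gene identifiers shared with a GRCm38 annotation, 98.3% had the same positions there, so positions are those of the table, on GRCm38. Whether strand entered the counting is unknown, so overlapping genes are uncertain.

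FPKM times gene length gave whole reads for 100% of values within a tolerance of 0.001. They served for depth, filters and voom. limma 3.58.1 (R 4.3.3; trend, robust) was fitted to log2(FPKM + 0.1) of all 9 libraries with 3 group means and no block, which understates changes of low genes. Tested genes had at least 0.5 FPKM and at least 10 reads in at least 3 libraries, which left 14233. Adjusted p-values are Benjamini-Hochberg. The method was tested on simulated data. Isoform ratios had exact permutation tests over 20 splits, which cannot give a p below 0.1. Members and lists were chosen with earlier results of these data known. Values by library are given for complex II, cytochrome c, the isoform pairs and the 3 members of smallest p per larger complex in either comparison with old wild type; Atp5f1 and Atp5k were added after their values were seen. Other list genes are named where called. Alternatives were another pseudocount, filter, scaling or trend, voom, library weights, a replicate block and each library left out.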

Additional observations from a re-analysis of the deposited data

How the results depend on the processing

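The number of members called higher in old than in young wild-type muscle (8) was 7 or 8 with upper quartile scaling or a pseudocount of 1, 11 with voom, 13 with the 6 libraries alone and 16 with library weights. It was 4 with the gene length trend removed, 1 with total read scaling, and 0 with no filter on low values or with the length and base composition trends removed, the last added after the data were seen. Calls over all tested genes moved too. In this comparison they were 482 higher in the main fit, 1287 with library weights, 263 with the length trend removed and 96 with total read scaling. With the length and base composition trends removed they were 0 higher. For the other settings listed above they are not given here. A change of the members under those settings cannot be told from a change over all tested genes. The 0 members called lower in old P311-/- than in old wild-type muscle became 22 with library weights, where 1390 of all tested genes were called lower. For old P311-/- over young wild type, library weights gave 1 higher and 4 lower, against 1651 and 1522 of all tested genes. Leaving out 1 library gave 0 to 11 higher for old over young wild type, 0 to 13 lower for old P311-/- over old wild type, and 0 to 2 higher and 0 to 2 lower for old P311-/- over young wild type. Without old P311-/- replicate 1, which gave 11, 13, 2 and 2, calls over all tested genes were 1033, 883, 1473 and 1312 in that order. Deviations from the group means correlated at -0.101 to 0.145 between same-numbered libraries and at -0.159 to 0.214 between differently numbered ones. With 3 libraries a group this cannot decide whether the replicate numbers pair the samples. With a replicate block 0 members were called higher in old than in young wild type, and no other count of members changed. The calls over all tested genes with this block are not given here.

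Some small fold changes changed sign. For old P311-/- over old wild type Sdha had -0.0029 with length and base composition trends removed, -0.00807 with the length trend removed, -0.010 with total read scaling and -0.025 with upper quartile scaling, Sdhc had 0.037 with library weights, and Atp5s had 0.11 with both trends removed. For old over young wild type Sdhc had -0.00050 with total read scaling and Cox6a2 had -0.043 with the length trend removed. Leaving out 1 library gave, for old P311-/- over old wild type, -0.17 to 0.20 for Sdha, -0.15 to 0.13 for Sdhc, -0.0901 to 0.33 for Cox6a2, and log2 ratios of -0.0298 to 0.70 for Cox6a2 to Cox6a1, -0.048 to 0.18 for Cox7a1 to Cox7a2 and -0.54 to 0.042 for Cox8b to Cox8a. It gave -0.14 to 0.089 for Cox8a and -0.27 to 0.00030 for the Cox7a1 to Cox7a2 ratio for old over young wild type, and -0.21 to 0.054 for that ratio for old P311-/- over young wild type. None of these had passed a test. The cause of these shifts was not tested. With 3 libraries a group, changes of a single member near the median of 0.38 mostly did not pass, Cox7b2 and Cox8c had too few reads to be tested, and the values of Cox6b2, which was tested, rest on 0 to 16 reads a library.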
